A study of Mus musculus with 3 samples.

Results

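The 10 genes described here encode the route by which antigen-presenting cells load peptides onto MHC class II molecules: H2-Aa, H2-Ab1, H2-Eb1, Cd74, Ciita, H2-DMa, H2-DMb1, H2-DMb2, H2-Oa and Ifi30. They were taken by symbol from the 32285 genes in the count files, and all 10 were present. They were measured by droplet single-cell RNA sequencing (10x 3' v3) in cells of the aortic arch intima, the inner lining of the artery, taken from the lesser curvature. One group was 1 library from mice that had received 30 µg of ultrapure lipopolysaccharide (LPS), a bacterial cell wall product, into a vein 18 h before harvest, and the other was 2 libraries from untreated control mice. All mice were C57BL/6J wild type, 12 to 13 weeks old and of both sexes, and 5 to 10 animals went into each pool, so no value can be traced to 1 mouse. Per the labels' protocols, tissue was handled in actinomycin D, which blocks transcription, and digested with collagenase D and DNase I.

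MHC class II molecules are pairs of an alpha and a beta chain that show peptides from engulfed protein to CD4 T cells. Cd74, the invariant chain, escorts new pairs to the endosome and blocks their groove, the DM heterodimer exchanges the last fragment of Cd74 for a peptide, and the DO heterodimer restrains DM. Ciita, the class II transactivator, binds no DNA itself but is recruited to the X and Y boxes of class II promoters by the RFX, CREB and NF-Y factors. Dendritic cells, B cells and many macrophages make class II constantly, and interferon-gamma can induce it in endothelium.

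Most members lie in the class II region of chromosome 17. In the GENCODE M21 annotation of GRCm38 (mm10, the build the submitters' processing notes name), H2-Oa spans chr17:34092340-34095234, H2-DMa chr17:34119541-34139101, H2-DMb2 chr17:34143307-34151555, H2-DMb1 chr17:34153072-34160230, H2-Ab1 chr17:34257689-34269419, H2-Aa chr17:34282744-34287823 on the minus strand, and H2-Eb1 chr17:34305867-34316674. Ciita spans chr16:10480059-10528418 and Ifi30 chr8:70762774-70766663 on the minus strand. On the opposite strand, Dexi overlaps Ciita, Gm20513 overlaps H2-Eb1, Brd2 and CR974462.4 overlap H2-DMa and BC051537 overlaps H2-Oa. On the same strand the span of CR974462.3 overlaps that of H2-DMa. Whether the overlap covers the 3' ends that are counted was not checked, so reads of that pair may not be told apart.

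The promoters are shown because Ciita acts through the X and Y boxes of class II promoters, and Ciita was the member whose change passed the test described below. RefSeq (GRCm38.p6) gave an upstream window for 7 of the 10 members, and 250 bases before each start were searched on both strands for the X box core, a pattern printed in capitals in the H2-Eb1 sequence, that is fixed except at the third, the seventh and the eighth letter, and the Y box core ATTGG. The X core was found in 0.716% of 32841 windows and the Y core in 33.9%. Of the 7 members with a window, 2 had an X core and 6 a Y core. An X core followed by a Y core on the same strand, with 15 to 30 bases between them, was found in 4 windows in all, those of H2-Eb1, H2-DMb1, H2-Ob (the DO beta chain) and H2-Eb2. The spacing was set with these windows in view. The upstream 120 bases of a beta and an alpha chain gene follow, H2-Eb1 at chr17:34305747-34305866 on the plus strand and H2-Aa at chr17:34287824-34287943 on the minus strand, 5′ to 3′ with matches to either core in capitals.
H2-Eb1: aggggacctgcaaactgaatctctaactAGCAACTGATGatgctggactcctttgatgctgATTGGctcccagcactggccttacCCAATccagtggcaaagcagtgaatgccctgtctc
H2-Aa: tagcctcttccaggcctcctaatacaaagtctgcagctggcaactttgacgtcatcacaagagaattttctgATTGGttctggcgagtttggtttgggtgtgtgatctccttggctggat
H2-Eb1 had an X core starting 92 bases before the transcription start and a Y core at 59 bases, with a further Y core on the other strand. H2-Aa had a Y core 48 bases before the start and no stretch with the letters of the X core searched.

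The duplicated DM beta genes, H2-DMb1 and H2-DMb2, differ at the X core. The X core stretch of H2-DMb1 (chr17:34153093-34153120) is set beside those of H2-Ob (chr17:34238814-34238841) and H2-Eb2 (chr17:34325539-34325566), and beside the H2-DMb2 stretch most like it (chr17:34145122-34145149), all 28 bases long and on the plus strand.
H2-DMb1: cctAGTAACTGATGatgctaggctgatt
H2-Ob: cctAGCAACAAATGatgcaaagtcttcg
H2-Eb2: accAGCAACTGATGctgctggtgctctt
H2-DMb2: cctattaaccgatgatgctaggctaagt
H2-DMb2 shared 24 of the 28 bases with H2-DMb1. Counted from 1 at the 5′ end of the printed stretch, with the H2-DMb1 base first, the substitutions were G5T, T10C, G25A and T27G, of which G5T falls on a fixed letter of the X core and ends the match. A Y core stood 61 bases before the RefSeq start of H2-DMb1 and 90 bases before that of H2-DMb2. Matches describe letters only.

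The libraries were uneven. The LPS library had 6000 cell barcodes with 21864072 UMIs, the molecular tags that mark single captured RNAs, against 1269 barcodes and 4940996 UMIs in control replicate 1 and 4813 barcodes and 20069697 UMIs in control replicate 2, and any pair of libraries shared at most 6 barcode sequences. Gm42418, a gene model over ribosomal RNA, took 28.6% of UMIs in the LPS library and 9.81% and 1.59% in control replicates 1 and 2. Levels are therefore given as CPM, the gene's UMIs per 1000000 UMIs outside Gm42418 and the globin genes, with exact Poisson 95% intervals that cover counting error only. Each UMI is a 3' tag, so levels are not divided by gene length. Cells were clustered without the members, the pathway genes and mitochondrial genes, and clusters were named from marker lists.

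The phagocyte-like class (sub-clusters with macrophage markers) held 324 LPS cells, against 76 and 203 cells in control replicates 1 and 2, and all 3 libraries detected all 15 macrophage markers in it. The cells came largely from different sub-clusters, however. In the LPS library 196 of them formed a sub-cluster led by Ccl5, Fcer1g and C1qa with a median Gm42418 share of 47.7%, 105 formed one led by Ccl17, Ccl5 and Ccl22 with a share of 28.3%, and 22 formed one led by Pou2f2 and Rgs1. Most control cells lay in other sub-clusters led by C1qb, Lyz2 or Fcer1g, apart from 11 cells of control replicate 1 in the Pou2f2 and Rgs1 sub-cluster and 26 cells of control replicate 2 and 1 of control replicate 1 in one led by Rgs1, and the remaining LPS cell lay in the main sub-cluster of control replicate 1. The macrophage marker list summed to 7916 CPM in LPS cells, against 23765 and 17352 in the controls. The dendritic list summed to 2468 in LPS cells, against 476 and 591, with 2 of its 14 genes at 0 in LPS cells, against 9 and 5. The neutrophil list summed to 935, against 0 and 11.3, with 1 of its 9 genes at 0 in LPS cells, against 9 and 6. Their part in the values below was not tested.

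Among phagocyte-like cells the transactivator Ciita was the only member whose change passed the test, and it was lower in LPS cells. It had 15 UMIs in LPS cells, against 27 and 106 UMIs in control replicates 1 and 2, from totals of 759647, 111381 and 706041 UMIs outside Gm42418 and the globins. That is 19.7 CPM (95% interval 11.1 to 32.6) in LPS cells, against 242 (160 to 353) and 150.1 (123 to 182) in the controls. The LPS interval lies below both control intervals. In edgeR's quasi-likelihood test, fitted to 8439 genes with 1 LPS library against 2 controls, Ciita fell by 3.26 ± 0.65 on the log2 scale (SE), 9.57 times lower, with a Benjamini-Hochberg adjusted p of 3.13e-05. It was 1 of 9 members tested that passed, against 6.45% of all genes called and 1.82% called lower. The test has 1 residual degree of freedom and assumes that the LPS library varies like the controls, and nothing in the labels says that the libraries are separate experiments, so the p measures a spread that may be technical. Under edgeR's default quasi-likelihood fit 0 of 8439 genes passed and the adjusted p of Ciita was 0.424 at a log2 change of -3.30. DESeq2 gave an adjusted p of 0.0468.

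**Figure D1:**
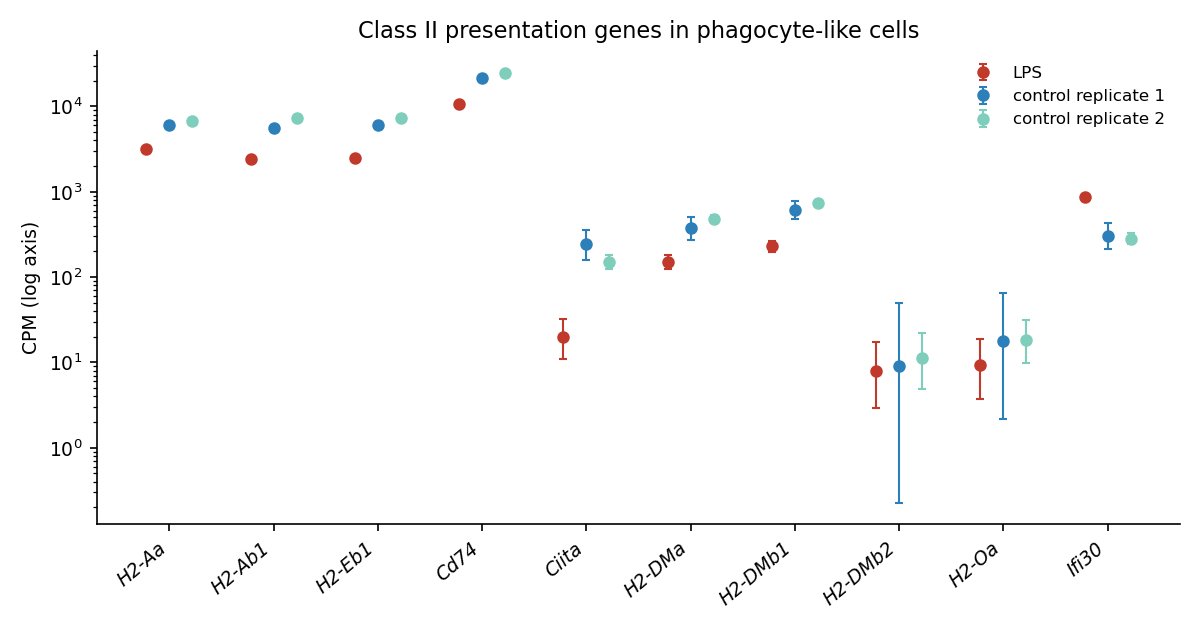
Levels of the 10 members in phagocyte-like cells, as CPM on a log axis, with 1 point per library and exact Poisson 95% intervals. Ciita stands at 19.7 in the LPS library, against 242 and 150.1 in the controls, and Ifi30 is the member with a higher level in the LPS library than in both controls.

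Ciita was also read by sub-cluster, with few UMIs in most. The 3329 unnamed LPS barcodes rich in Gm42418 also held 22 Ciita UMIs beside 1710 Cd74 UMIs. Phagocyte-like LPS cells held 15 beside 8013. The Ciita level of the unnamed barcodes in CPM is not given here, and the part of RNA from outside the cells in the values below was not tested. The Ccl5-led and Ccl17-led LPS sub-clusters held 2 and 4 UMIs, or 9.12 (1.10 to 32.9) and 8.20 (2.24 to 21.0) CPM. The main sub-cluster of control replicate 1 had 67.6 (18.4 to 173) and those of control replicate 2 led by Lyz2, Fcer1g and C1qb had 49.4 (24.7 to 88.4), 43.4 (8.96 to 127) and 222 (176 to 278). Both LPS values lay below all 4 control values, but some intervals overlapped. The C1qb-led sub-cluster, the highest of the 4, held 27 cells of control replicate 2, 1 of control replicate 1 and no LPS cell. Its median depth was 13319 UMIs per cell, and it was kept in the check below that leaves out sub-clusters. No tested alternative left it out as a sub-cluster, so its part in the fall of Ciita was not tested. In the Pou2f2 and Rgs1 sub-cluster, which both treatments shared, Ciita stood at 174 (79.6 to 331) in 22 LPS cells, against 1544 (882 to 2507) in 11 cells of control replicate 1. Those 11 cells held 16 of the 27 Ciita UMIs of that library's phagocyte-like cells. Without the Pou2f2 and Rgs1 sub-cluster and its counterpart in control replicate 2, Ciita fell by 3.90 on the log2 scale with an edgeR adjusted p of 1.45e-05. With cells bearing C1q UMIs only, Ciita stood at 21.0 in 217 LPS cells, against 162 and 150.5 in 61 and 187 control cells, and fell by 2.95 (edgeR adjusted p 0.00311). In control replicate 2 those cells held 103 of the 106 Ciita UMIs of the phagocyte-like class.

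**Figure D2:**
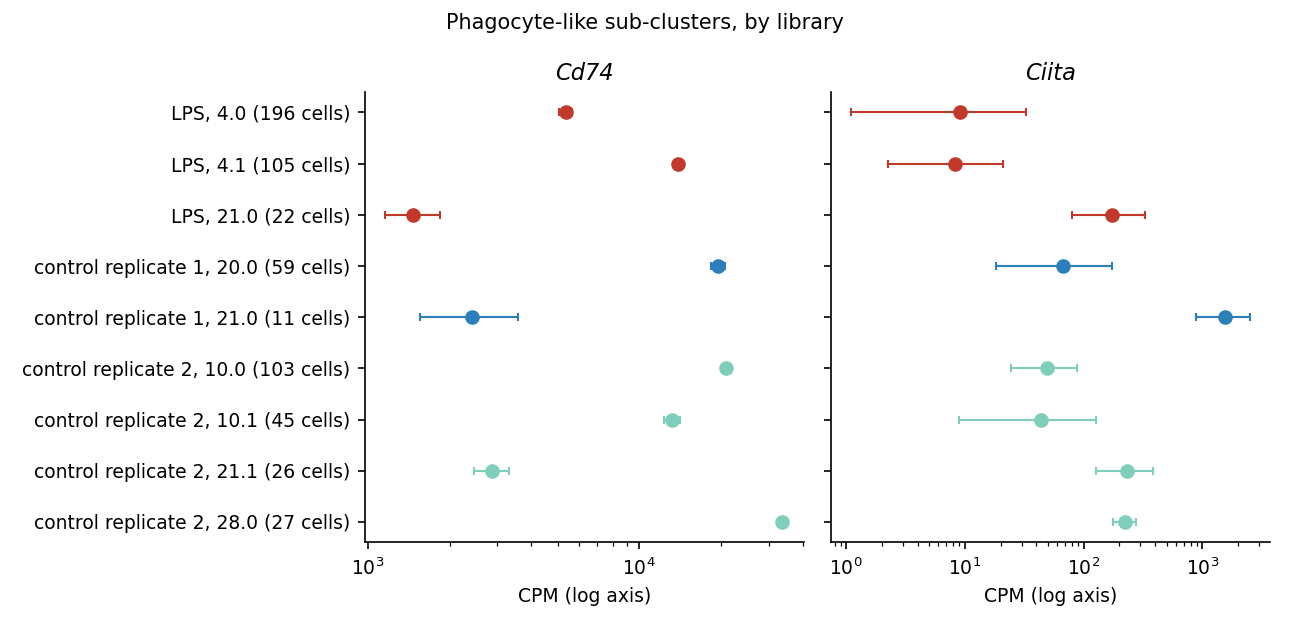
Cd74 and Ciita in each phagocyte-like sub-cluster with at least 8 cells, as CPM on log axes with exact Poisson 95% intervals, LPS sub-clusters on top. Ciita is below 10 CPM in the 2 larger LPS sub-clusters, while Cd74 in the Ccl17-led LPS sub-cluster (4.1) lies within the range of the control sub-clusters.

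The chains of the class II molecule and Cd74 had lower levels in LPS phagocyte-like cells, by amounts that did not pass the test. Cd74 had 10548 CPM in LPS cells, against 21386 and 24799 in control replicates 1 and 2. H2-Aa, the alpha chain of the I-A molecule, had 3133 in LPS cells, against 6006 and 6798. Its partner H2-Ab1 had 2429 in LPS cells, against 5656 and 7325, and H2-Eb1, the beta chain of I-E, had 2518, against 6078 and 7344. For each of these 4 genes the LPS value lay below both controls. The edgeR log2 changes were -1.15 ± 0.95 for Cd74, -1.06 ± 0.83 for H2-Aa, -1.44 ± 0.85 for H2-Ab1 and -1.44 ± 0.85 for H2-Eb1 (SE), with adjusted p of 0.681, 0.648, 0.446 and 0.451. The approximate 95% interval of Cd74 ran from -3.03 to 0.72 (SE-based), which includes 0.

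The spread between cells was wide in all libraries. Per cell, the sum of these 4 genes had a median of 8.93 UMIs per 1000 UMIs outside Gm42418 and the globins in LPS cells, against 32.4 and 28.3 in the controls. At least 20 per 1000 was reached by 74 of 324 LPS cells (22.8%), against 45 of 76 (59.2%) and 127 of 203 (62.6%) control cells. The highest LPS cell held 71.8 per 1000, against 117 and 103, so the ranges overlap. Cells are not replicates, and 1 library against 2 cannot give an exact permutation p under 0.333. Across cells thinned to 1000 UMIs each, the 4 genes varied together, with Spearman correlations between pairs of 0.58 to 0.66 in the LPS library, 0.60 to 0.83 in control replicate 1 and 0.66 to 0.81 in control replicate 2. These describe 324, 46 and 203 cells that share their library and vary in Gm42418 share.

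**Figure D3:**
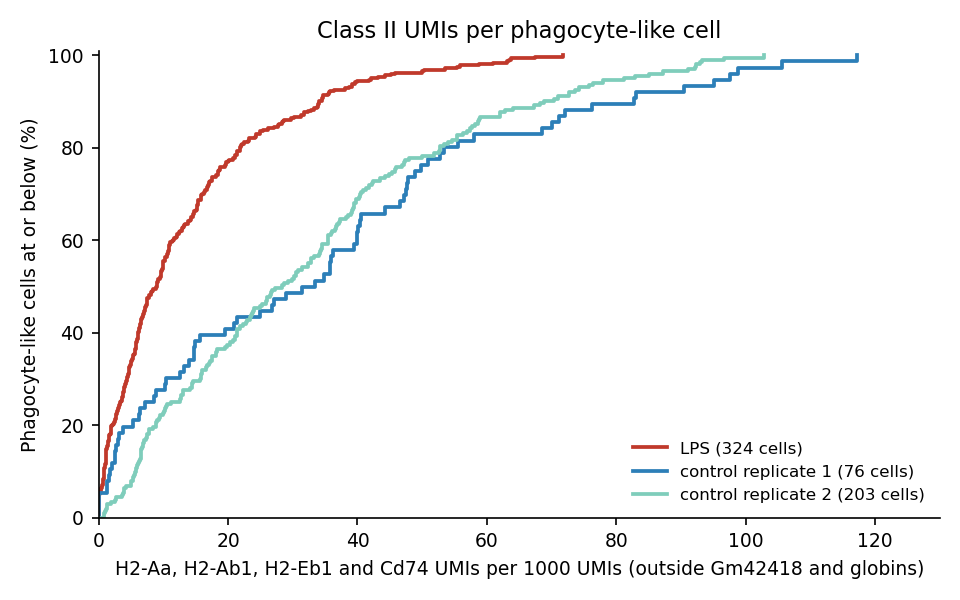
Share of phagocyte-like cells (vertical axis, %) at or below a given sum of H2-Aa, H2-Ab1, H2-Eb1 and Cd74 UMIs per 1000 UMIs of the cell outside Gm42418 and globins (horizontal axis), 1 line per library. The LPS line lies to the left of both control lines, with a median of 8.93, against 32.4 and 28.3.

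Most phagocyte-like cells held at least 1 class II UMI. At 1000 UMIs per cell, a UMI of any of the 4 genes was found in 87.3% (83.2 to 90.8, Clopper-Pearson 95%) of 324 LPS cells, against 93.5% (82.1 to 98.6) of 46 and 99.5% (97.3 to 99.99) of 203 control cells. Without thinning the shares were 94.8% in LPS cells, against 94.7% and 100%, at median depths of 2096.5 UMIs per cell, against 1125 and 1917. Outside Gm42418 and the globins the median depths were 1228 in LPS cells, against 805 and 1864. Thinning left out 30 shallower cells of control replicate 1 and none of the others. The 1000 UMIs include Gm42418, with a median share of 38.6% in C1q-bearing LPS cells, against 24.3% and 2.38% in those of the controls. Thinned LPS shares therefore rest on fewer UMIs of other genes, and the part of this in the shares was not tested. Erythroid-like cells, which should lack the genes, gave a share of 7.91% in the LPS library and 39.2% in control replicate 2 when thinned, at median depths of 8224 and 4757.5 UMIs, mostly of globins. For Ciita the thinned share was 3 of 324 LPS cells (0.926%), against 9 of 46 (19.6%) and 12 of 203 (5.91%) control cells, with 0 of 759 LPS erythroid-like cells and 1 of 372 in control replicate 2.

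The members that edit the bound peptide had lower levels as well, without passing the test. H2-DMa, the DM alpha chain, had 151 CPM in LPS phagocyte-like cells, against 377 and 479 in control replicates 1 and 2, a log2 change of -1.53 ± 0.61 (SE) with an edgeR adjusted p of 0.138. H2-DMb1, a DM beta chain, had 229 in LPS cells, against 611 and 729, at -1.57 ± 0.67 and an adjusted p of 0.186. Neither passed, although the LPS value lay below both controls. Both passed when cells were chosen by marker counts in place of clusters, where H2-DMa changed by -2.33 (adjusted p 0.00552) and H2-DMb1 by -2.11 (adjusted p 0.0201), and when monocyte-like cells were added, at -2.0 (adjusted p 0.0436) and -2.16 (adjusted p 0.0342). H2-Oa, the DO alpha chain, had only 7 UMIs in LPS cells, against 2 and 13, and a log2 change of -0.96 ± 1.06 (adjusted p 0.804). H2-DMb2 had 6, 1 and 8 UMIs in that order and was removed by the filter on low counts.

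The 2 DM beta genes divided by cell class. In phagocyte-like cells H2-DMb1 exceeded H2-DMb2 in every library, with 229 against 7.90 CPM in LPS cells, 611 against 8.98 in control replicate 1 and 729 against 11.3 in control replicate 2. All 6 H2-DMb2 UMIs of the LPS library came from the 10 cells with at least 2 UMIs of the mature dendritic genes Ccr7, Fscn1 or Ccl22 and fewer than 2 of C1q, where H2-DMb2 stood at 40.1 (14.7 to 87.3) and H2-DMb1 at 20.1 (4.14 to 58.6), with overlapping intervals. In B-like cells the order was the reverse. There H2-DMb2 had 149 (100.3 to 212) and H2-DMb1 24.8 (8.04 to 57.8) in 18 LPS cells, and H2-DMb2 had 414 (317 to 530) and H2-DMb1 93.4 (51.1 to 157) in 18 cells of control replicate 2. The intervals of the pair did not overlap in either library. Of the 50-base windows in the last 500 bases of H2-DMb1 transcripts, 27.4% also occur in H2-DMb2 transcripts, and 0 of the 457 windows of H2-DMb2 occur in H2-DMb1 transcripts, so counting could split their reads.

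Ifi30, a lysosomal thiol reductase that opens disulphide bonds of engulfed protein, stood the other way. It had 862 CPM (797 to 931) in LPS phagocyte-like cells, against 305 (211 to 427) and 283 (245 to 325) in control replicates 1 and 2. The LPS value lay above both controls, but the log2 change of 1.53 ± 0.60 (SE) did not pass (edgeR adjusted p 0.127). Of its 655 UMIs in LPS cells, 450 came from the 10 cells with mature dendritic genes. Ifi30 stood at 3009 in those 10 cells, beside Cd74 at 6319, H2-Aa at 2454 and no Ciita UMI in 149549 UMIs (exact Poisson upper bound 24.7). Among cells bearing C1q UMIs, Ifi30 was at 306 in LPS cells, against 335 and 288 in the controls, and its log2 change was -0.12 (adjusted p 0.978). Without the Gm42418-rich LPS sub-cluster it was 1.92 and passed (adjusted p 0.0266). Monocyte-like cells of the LPS library, 35 in number, held Ifi30 at 665 and Cd74 at 525. They also held 1963 C1q UMIs, against 4064 in the phagocyte-like LPS cells, so the monocyte name does not set them apart from macrophages.

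Genes around the pathway, in 6 lists of 35 symbols, were set beside the members. In phagocyte-like cells 4 of the 27 list genes tested rose and 0 fell, beside 4.62% of all genes called higher. Those that rose included Jak2 and Irf1 of interferon-gamma signalling, which induces Ciita in many cells, and 4 of the 7 tested genes of that list did not pass. Jak2, a kinase bound to cytokine receptors, had 137 UMIs in LPS cells, against 3 and 15, and rose by 3.0 ± 0.57 on the log2 scale (SE; edgeR adjusted p 1.06e-05). Irf1, which acts on a Ciita promoter, had 123 UMIs in LPS cells, against 8 and 29, and rose by 1.70 ± 0.53 (adjusted p 0.0258). The rises passed less often than the fall in Ciita: DESeq2 called neither of them nor the protease gene Ctsl, and Irf1 passed in 2 of 10 alternatives, Ctsl in 4 and Jak2 in 7, against 9 of 10 for Ciita. With C1q-bearing cells only, Jak2 changed by 1.37 (adjusted p 0.547), and with cells chosen by marker counts Irf1 changed by 0.96 (adjusted p 0.418).

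Of 8 endosomal proteases and their inhibitor, Ctsl, which trims Cd74 in thymic epithelium, rose by 1.58 ± 0.53 (SE; edgeR adjusted p 0.0466), with 224 UMIs in LPS phagocyte-like cells, against 6 and 88, and 1.07 (adjusted p 0.390) at a looser mitochondrial limit. It changed by 1.29 without control replicate 1 and 2.40 without control replicate 2, with no test. Ctss, the protease that trims Cd74 in most antigen-presenting cells, was at 1703 TMM-scaled CPM in LPS cells, against 1555 and 1311, at 0.25 ± 0.72 (adjusted p 0.952). The inhibitor Cst3 was at 4203 in LPS cells, against 2594 and 2426, at 0.74 ± 0.75 (adjusted p 0.771). None of 5 tested genes of the X and Y box complex passed, nor of 3 tested ligases of class II and their antagonist, nor of 3 tested lineage regulators of Ciita. Median log2 changes of these lists ran from -0.40 to 0.27, beside -0.00103 over all genes. H2-Ob was the only other class II gene tested, at -2.21 ± 1.30 (adjusted p 0.447).

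**Figure D4:**
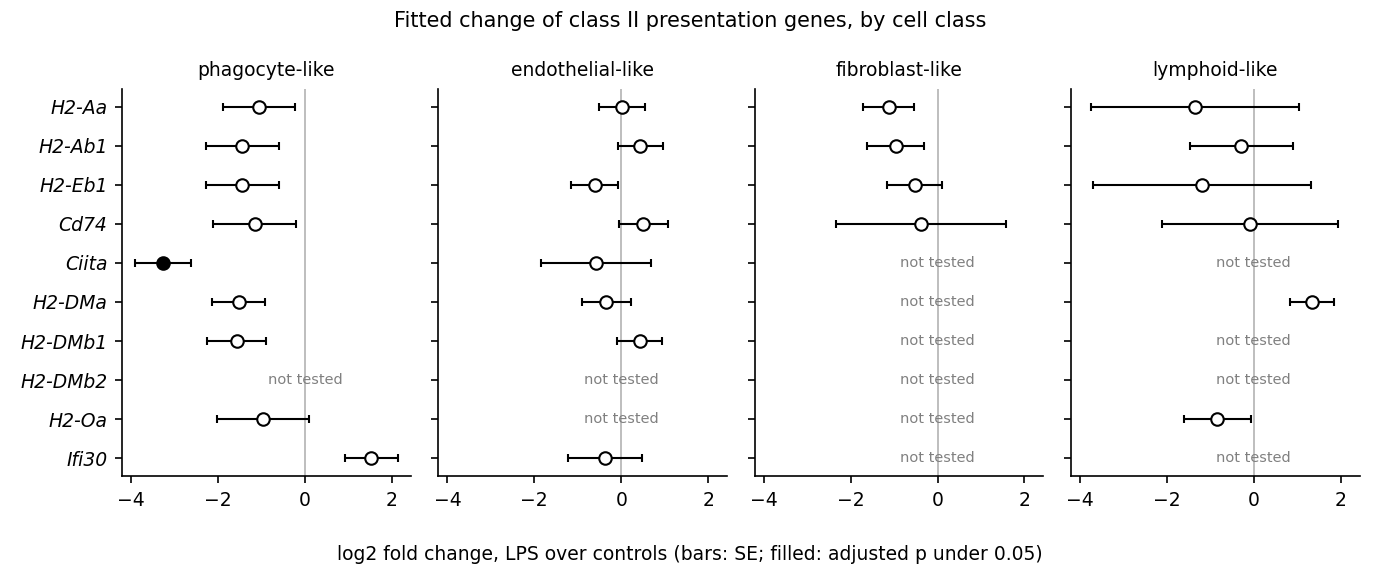
Fitted log2 fold change of each member, LPS over controls, in 4 cell classes, with SE bars; filled points passed an edgeR adjusted p of 0.05. Ciita in phagocyte-like cells is the only filled point, at -3.26.

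Endothelial-like cells carried class II RNA at a lower level, and no member passed the test there. The LPS and control cells shared no sub-cluster, and the endothelial marker list summed to 6661 CPM in LPS cells, against 15188 and 13759 in control replicates 1 and 2, with macrophage markers at 191, against 84.5 and 285; their part in the values was not tested. Cd74 had 1102 CPM (1051 to 1155) in 208 LPS cells, against 901 (752 to 1072) and 743 (674 to 817) in 28 and 110 control cells. H2-Aa had 282 in LPS cells, against 345 and 254, H2-Ab1 274, against 190.1 and 228, and H2-Eb1 158, against 261 and 251. Ciita had 15 UMIs in LPS cells, against 3 and 7, or 9.45 CPM, against 21.1 and 12.1, with overlapping intervals. Of 8 members tested, 0 passed in edgeR, DESeq2 or any other alternative run, and 0 had an unadjusted p under 0.05 in edgeR, beside 9.17% of 8538 genes called, 5.05% higher and 4.12% lower. Cd74 changed by 0.51 ± 0.57 (SE) with an adjusted p of 0.713 and a 95% interval of -0.60 to 1.62. Of the surrounding lists, 2 of 19 tested genes fell and 0 rose, beside 4.12% of genes called lower. The inhibitor Cst3 fell by 2.84 ± 0.67 (adjusted p 0.000779), with 390.2 TMM-scaled CPM in LPS cells, against 2429 and 3144, and the protease Ctsh by 1.91 ± 0.62 (adjusted p 0.0282), with 206 in LPS cells, against 555 and 975.

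The size of the Ciita response was not shown to differ between the classes. In an edgeR test of the interaction with library as a block, Ciita was at -2.58 ± 0.96 (phagocyte-like minus endothelial-like log2 change, SE) with an adjusted p of 0.441, and 0 of 9 members passed, with 2 at an unadjusted p under 0.05, beside 0.336% of 9833 genes called, 0.203% higher and 0.132% lower. With cells chosen by marker counts, Ciita at -4.04 (adjusted p 0.00513) and H2-DMb1 at -2.64 (adjusted p 0.0327) passed. That choice also called 57 genes higher and 46 lower, against 20 and 13 with clusters.

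Free RNA gives UMIs in droplets of cells that do not make a gene, at a ratio fixed by its source, so Cd74 was set against the complement genes C1qa, C1qb and C1qc, which macrophages make. Phagocyte-like cells held 1.97 Cd74 UMIs per C1q UMI in the LPS library, against 2.02 and 2.39 in control replicates 1 and 2, so that Cd74 and C1q both had lower levels in LPS cells, at a like ratio. Erythroid-like cells held 1.85 in the LPS library and 2.13 in control replicate 2, fibroblast-like cells 1.60 and 2.67, and lymphoid-like cells 2.46 and 2.35, near the phagocyte ratio. Lymphoid-like cells of control replicate 1 held 10 Cd74 UMIs and 1 C1q UMI. Monocyte-like cells of the LPS library held 0.225 Cd74 UMIs per C1q UMI, from 1963 C1q UMIs. Endothelial-like cells held 27.3 in the LPS library, against 64.0 and 5.81 in the controls, from 64, 2 and 74 C1q UMIs. B-like cells held 1006 Cd74 UMIs and no C1q UMI in the LPS library and 119 Cd74 UMIs per C1q UMI in control replicate 2. In control replicate 2 the endothelial-like Cd74 level of 743 was below that of erythroid-like cells, 910.2 (826 to 1001), whereas in the LPS library it was above theirs, 1102 against 422 (370.3 to 480). Erythroid-like CPM leave out the globins, most of those cells' UMIs, so they are not levels per cell. At 1000 UMIs per cell, globins and Gm42418 included, a class II UMI was found in 7.91% of erythroid-like LPS cells and 39.2% of those in control replicate 2. It was found in 41.8% (35.0 to 48.8) of endothelial-like and 25.2% (19.5 to 31.7) of fibroblast-like LPS cells, and in 67.3% (57.7 to 75.9) and 57% (45.3 to 68.1) of those in control replicate 2, where the intervals of this pair overlap. LPS fibroblast-like sub-clusters had median Gm42418 shares of 41.9% (174 cells) and 10.0% (32 cells), against 20.7%, 9.71% and 35.3% in endothelial-like ones. The part of Gm42418 in these shares was not tested.

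**Figure D5:**
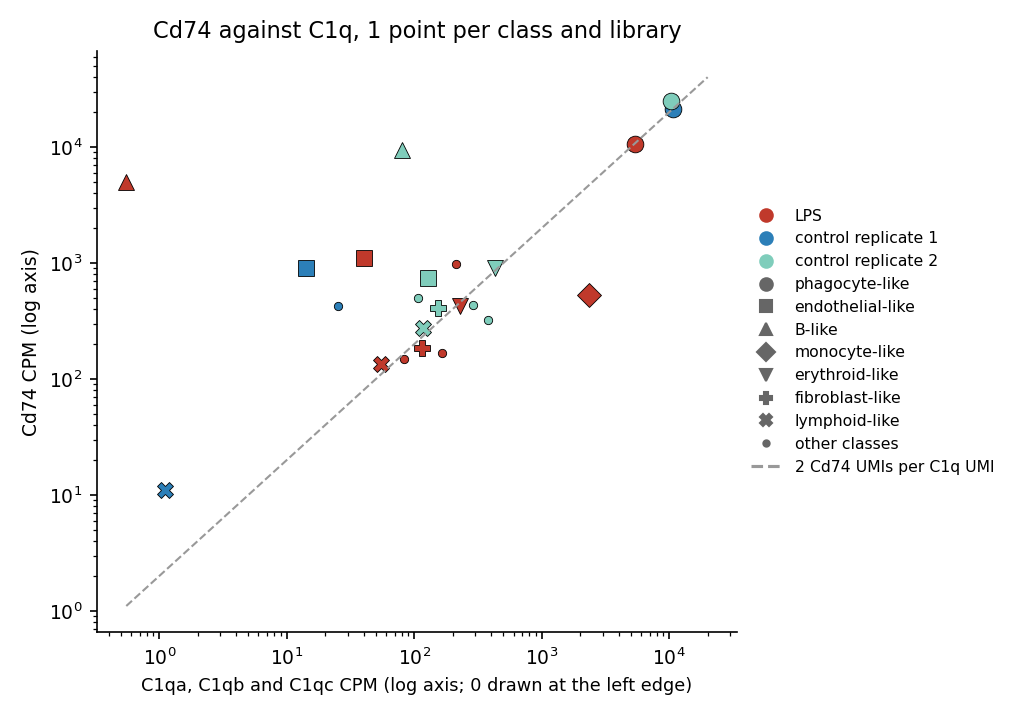
Cd74 against the sum of C1qa, C1qb and C1qc, both in CPM on log axes, 1 point per cell class and library with at least 10 Cd74 UMIs; shape gives the class and colour the library, and the dashed line marks 2 Cd74 UMIs per C1q UMI. Erythroid-like, fibroblast-like and lymphoid-like points of the LPS library and control replicate 2 lie near the line, the lymphoid-like point of control replicate 1 (1 C1q UMI), endothelial-like and B-like points above it and the monocyte-like point below it.

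Across classes, phagocyte-like cells had the highest Cd74 level in every library, followed by B-like cells at 4985 (4681 to 5303) in the LPS library and 9517 (9029 to 10024) in control replicate 2. In the LPS library endothelial-like cells came next at 1102, then 25 cardiomyocyte-like cells at 980.3 (621 to 1471), whose interval overlaps that of endothelial-like cells, monocyte-like cells at 525 (477 to 576) and erythroid-like cells at 422. Fibroblast-like cells at 184 (152 to 222), adipocyte-like cells at 166 (82.8 to 297), mesothelial-like cells at 149 (108 to 201) and lymphoid-like cells at 135 (104 to 172) had intervals that overlapped their neighbours'. Neutrophil-like cells were lowest at 23.0 (9.93 to 45.3). B-like cells had lower Cd74 in the LPS library than in control replicate 2, and H2-Aa there was 1655, against 2843. Each value comes from 18 cells of 1 library, so this difference has no replicate check. Ciita was at 49.6 (23.8 to 91.1) in LPS B-like cells, against 73.4 (36.6 to 131) in those of control replicate 2, with overlapping intervals.

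Fibroblast-like and lymphoid-like cells, with few member UMIs, gave no member that passed. LPS and control fibroblast-like cells shared no sub-cluster, and the fibroblast marker list summed to 18831 CPM in LPS cells, against 42650 and 33551 in control replicates 1 and 2. Most lymphoid-like control cells lay in sub-clusters without LPS cells, and the lymphoid list summed to 8087 in LPS cells, against 14165 and 15051. The part of these differences in the values was not tested. Fibroblast-like cells held 112 Cd74 UMIs in the LPS library, against 0 and 112 in control replicates 1 and 2, where 0 has an exact Poisson upper bound of 64.6 CPM. Of 4 members tested 0 passed in edgeR, with 0 at an unadjusted p under 0.05, beside 12.9% of 5450 genes called, 7.98% higher and 4.95% lower. Their signs turned on 1 library: without control replicate 2, Cd74 changed by 5.02 and H2-Ab1 by 2.79 on the log2 scale. Without the Gm42418-rich LPS sub-cluster, H2-Aa at -2.87, H2-Ab1 at -3.0 and H2-Eb1 at -2.65 passed (adjusted p 0.00494, 0.0151 and 0.0240), and H2-Aa also passed at a looser mitochondrial limit, at -1.75 (adjusted p 0.0293). Of the surrounding lists, 16 genes were tested in fibroblast-like cells, and the 2 of highest level were Cst3 at -0.30 ± 0.44 (adjusted p 0.769) and Ctsl at -0.07 ± 0.44 (SE; adjusted p 0.963). In lymphoid-like cells 0 of 6 members passed in edgeR and 1 had an unadjusted p under 0.05, H2-DMa at 1.34 ± 0.51 (adjusted p 0.391), beside 0.253% of 9500 genes called, all higher. Of 25 list genes tested there 0 passed, and the 2 of highest level were Ifngr1 at 0.80 ± 0.41 (adjusted p 0.504) and Jak1 at 1.03 ± 0.39 (adjusted p 0.391).

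Macrophage markers were among the genes whose levels across classes were most like those of the class II chains. Over 20 sums of named classes with at least 20 cells, and among 8612 genes that reached 50 CPM, the 10 non-members with the highest Pearson correlation to the mean of H2-Aa, H2-Ab1, H2-Eb1 and Cd74 on the log2(value + 1) scale were Aif1 (0.90), Ms4a7 (0.88), C1qa (0.87), C1qb (0.86), Zmynd15 (0.84), Gatm (0.84), Clec1b (0.83), Slc7a7 (0.83), Lilra5 (0.82) and Pdgfb (0.82). Of the members outside that mean, Ciita reached 0.84, H2-DMb1 0.80, H2-DMa 0.78 and Ifi30 0.72. The sums share 3 libraries, and Aif1, Ms4a7, C1qa and C1qb are among the markers that named the phagocyte-like cells, so these values are a description.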

How the data were processed

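The authors deposited raw UMI counts for each gene in each barcode. Cell Ranger 3.1, R 4.2.1, Seurat 4.2.0 and the mm10 build are named, per the submitters' processing notes. The annotation release, the strand setting and how barcodes were selected: not given in the sources used here. Computed here, barcodes needed 500 UMIs, 300 genes and no more than 15% mitochondrial UMIs, which left 5156 of 6000 LPS barcodes and 429 of 1269 and 2693 of 4813 control barcodes. Scrublet marked only 6 doublets, too few to have worked, so doublets remain. Clustering used Leiden in 2 steps (scanpy 1.11.5, leidenalg 0.10.2; 2000 variable genes, 30 components, 15 neighbours, resolution 1.0 and then 0.5), and names came from 19 marker lists. Keeping monocyte-like cells apart from phagocyte-like cells was decided after seeing the data.

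Sums per class and library were tested with edgeR 4.0.16 (TMM, filterByExpr, Benjamini-Hochberg, threshold 0.05) where every library had 20 cells. The robust legacy quasi-likelihood fit replaced the default after the default had called no gene in phagocyte-like cells. On simulated counts of that comparison (8439 genes) the chosen fit recovered 18 of 100 genes changed 4-fold and 76 of 100 changed 16-fold, with 3 false calls, and the default recovered 0 of each. The simulation gave every gene the same dispersion, so its recovery and false calls need not hold for the real counts. Alternatives were RLE factors, no filter, DESeq2 1.42.0, a 25% mitochondrial limit, cells chosen by marker UMIs, cells free of phagocyte UMIs, left-out controls and, added after seeing the data, other make-ups of the phagocyte-like class. All members were to be named in classes of 20 cells or more, and surrounding genes where they passed or were the 2 of highest level. B-like cells, 18 per library, were described outside that rule. Members, lists and the spacing of promoter matches were chosen with earlier results of these data known. One gene of the surrounding lists is not reported here.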

Additional observations from a re-analysis of the deposited data

Results flagged for a closer look

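One signal lies outside the classes compared. Unnamed LPS barcodes in sub-clusters with a median Gm42418 share of at least 40%, 3329 in number, held Cd74 at 592.1 CPM, from 1710 UMIs. Their 1.77 Cd74 UMIs per C1q UMI stood beside 1.97 in phagocyte-like and 1.85 in erythroid-like cells of the same library. No control level was set beside the Cd74 level, and its cause was not tested.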

How the results depend on the processing

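Ciita in phagocyte-like cells was lower under all 10 alternatives, by -4.37 to -2.95 on the log2 scale, and passed in 9, the exception being edgeR's default fit; with either control left out it was -3.30 to -2.71, with no test. Counts of calls moved more. Members passing under an alternative, here and above, are mostly given without the share of all genes called in the same setting, so they cannot be read against it. In phagocyte-like cells (390 genes higher, 154 lower, 1 member lower) there were 81 lower without a filter, 55 higher and 16 lower with DESeq2, 0 higher, 0 lower and 0 members with the default fit, and 217 higher and 62 lower in C1q-bearing cells. Members lower were 3 with marker-chosen cells and 3 with monocyte-like cells added, and 1 member was higher without the Gm42418-rich sub-cluster. In endothelial-like cells DESeq2 gave 110 higher and 106 lower, and the 25% mitochondrial limit 559 lower. In fibroblast-like cells there were 145 lower without a filter and 77 higher and 65 lower with DESeq2, with 1 member lower at the 25% limit and 3 without the Gm42418-rich sub-cluster. In lymphoid-like cells there were 391 higher and 193 lower without a filter, 93 and 16 with DESeq2, 243 and 66 with marker-chosen cells and 0 higher at the 25% limit. The interaction gave 57 higher, 46 lower and 2 members lower with marker-chosen cells. Unthinned, the share of phagocyte-like cells with a class II UMI was 94.8% in the LPS library and 100% in control replicate 2.

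The sign turned for Ifi30 in C1q-bearing phagocyte-like cells (-0.12), for H2-Aa in endothelial-like cells with RLE factors (-0.0088) and DESeq2 (-0.013), for H2-DMa there at the 25% limit (0.073), and for Cd74 with marker-chosen fibroblast-like (0.29) and lymphoid-like cells (0.16), none of them past the test. With either control left out, with no test, it turned in fibroblast-like cells for H2-Aa (-1.38 to 0.68), H2-Ab1 (-1.28 to 2.79), H2-Eb1 (-0.81 to 1.48) and Cd74 (-1.0 to 5.02), in lymphoid-like cells for H2-Aa (-2.23 to 1.89), H2-Ab1 (-0.99 to 1.07), H2-Eb1 (-2.08 to 2.39) and Cd74 (-1.05 to 3.03), and in endothelial-like cells for Ifi30 (-0.48 to 0.34) and H2-Aa (-0.05 to 0.24). The causes were not tested. No paired analysis was possible because the groups share fewer than 2 replicate numbers. With 1 LPS library, a library effect and the treatment cannot be told apart. In the simulated counts, which gave every gene the same dispersion, most 4-fold changes were missed.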
